A study of Mus musculus with 10 samples.

Results

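The 164 array probes described here tile 2.5 Mb of mouse chromosome 7 (mm9, starts from 53800000 to 56300000), an interval named for the Mrgpr sensory receptor cluster. They were taken by position alone, from 161460 autosomal probes and 170305 probes in all, and were each measured in 10 animals. The interval itself was chosen by the log2 ratios of animal over pool on these same arrays, so its levels are given as a description. The study used comparative genomic hybridisation, in which an animal's DNA and a reference DNA compete for the same probes and the ratio of both signals reports relative copy number.

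All 10 animals were ZFLacZ transgenic mice, a line first made on an SJL x C57BL/6 background, and liver DNA was used throughout. The 5 ICSI-derived animals came from testis cells of the line frozen for 14 years, whose sperm were injected into oocytes of DBA x C57BL/6 females. The 5 naturally born animals were adult progeny of the line that the labels call wild type. Each group held 3 labelled males and 2 labelled females, and each animal was compared with 1 pool made from equal amounts of C57BL/6, SJL and DBA DNA. The ICSI-derived animals differ from the controls in maternal strain as well as in freezing and injection, and these cannot be told apart.

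Mas-related G protein-coupled receptors, the Mrgpr family, are carried by small-diameter sensory neurons, where several members detect itch-evoking and painful ligands. In rodents the a, b and c subfamilies have expanded into a tandem array of genes and pseudogenes, the kind of repeated DNA in which copy number often differs between mouse strains. Mrgpra3 is a receptor for the itch-inducing drug chloroquine, Mrgprx1 (formerly MrgprC11) responds to the peptide BAM8-22, Mrgprb2 is the mast cell receptor for many cationic drugs and peptides, and Mrgprb4 marks touch-sensing fibres of hairy skin. The RefSeq table for GRCm38.p6 lists 27 Mrgpr entries between Ptpn5 and Zdhhc13, of which 15 are protein coding, 11 are pseudogenes and 1 is a transcribed pseudogene. In order along the chromosome the coding genes are Mrgpra9, Mrgpra1, Mrgpra2a, Mrgpra2b, Mrgpra3, Mrgpra4, Mrgprx1, Mrgprb5, Mrgprb4, Mrgprb13, Mrgprb8, Mrgprb1, Mrgprx2, Mrgprb2 and Mrgprb3. The probes carry mm9 positions without gene names, so no probe was assigned to Mrgpra1, Mrgprb1, Mrgprx1 or any other gene, and whether a probe is exonic, intronic or intergenic was not determined. That the interval holds the cluster therefore rests on its name.

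Of the 164 probes, all were well above background in both channels on every array and none was saturated. The arrays differed in noise. The deposited headers give the scatter of successive log ratios as at most 0.151 on 7 arrays and at least 0.173 on the other 3, namely replicates 1 and 4 of the ICSI-derived group and replicate 2 of the naturally born one. These 3 noisiest arrays were together the 3 highest or the 3 lowest animals at 22 of the 164 probes, against 12.1% of all autosomal probes. On sex chromosomes, the array labelled naturally born replicate 3 (labelled male) had a chromosome X mean of -0.03 and a chromosome Y mean of -0.01, which is the level of neither sex. The other labelled males and the labelled females differed by 0.85 on chromosome X, which gives a scale for the values that follow.

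Across the interval as a whole the animals lay slightly and equally above the pool. The mean log2 ratio over all 164 probes, centred on each array's autosomal median, was 0.07 in ICSI-derived replicates 1, 2 and 3, 0.06 in replicate 4 and 0.08 in replicate 5. In the naturally born group it was 0.06 in replicates 1 and 5, 0.07 in replicates 2 and 4, and 0.08 on the array labelled replicate 3. The groups overlapped fully, at 0.070 ± 0.005 and 0.069 ± 0.008 (SD, n = 5 each). The median over probes of the mean of 10 animals was 0.066 for the members and -0.0019 for all autosomal probes.

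By window means, the elevation was highest in the middle of the interval, where a few probes weighed heavily. In the 10 windows of 250 kb that make up the interval, the mean over 10 animals was 0.28 in window 4, 0.17 in window 5 and 0.18 in window 6. The other 7 windows lay between -0.01 and 0.08. In window 4 the probes at 54576634, 54758476 and 54771660 had means of 0.62, 0.79 and 0.65. The rest of that window had probe means from -0.04 to 0.23. Window 5 held the probe at 55013164, with a mean of -0.59. Window 4 held values from 0.19 to 0.33 among the animals, window 5 from 0.09 to 0.25 and window 6 from 0.11 to 0.25, so each animal lay above 0 in all 3. In the flanks, the 1 Mb before the interval averaged 0.08, as high as the 0.07 of the interval, and ranged from 0.00 to 0.18 between animals. The 1 Mb after it averaged 0.04 with a range of 0.01 to 0.08. The mean level of the whole interval was thus not particular to it. The spread in the first flank was wider than in any window, and its 2 highest values were those of naturally born replicate 2 and ICSI-derived replicate 1, both noisy arrays.

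**Figure D1:**
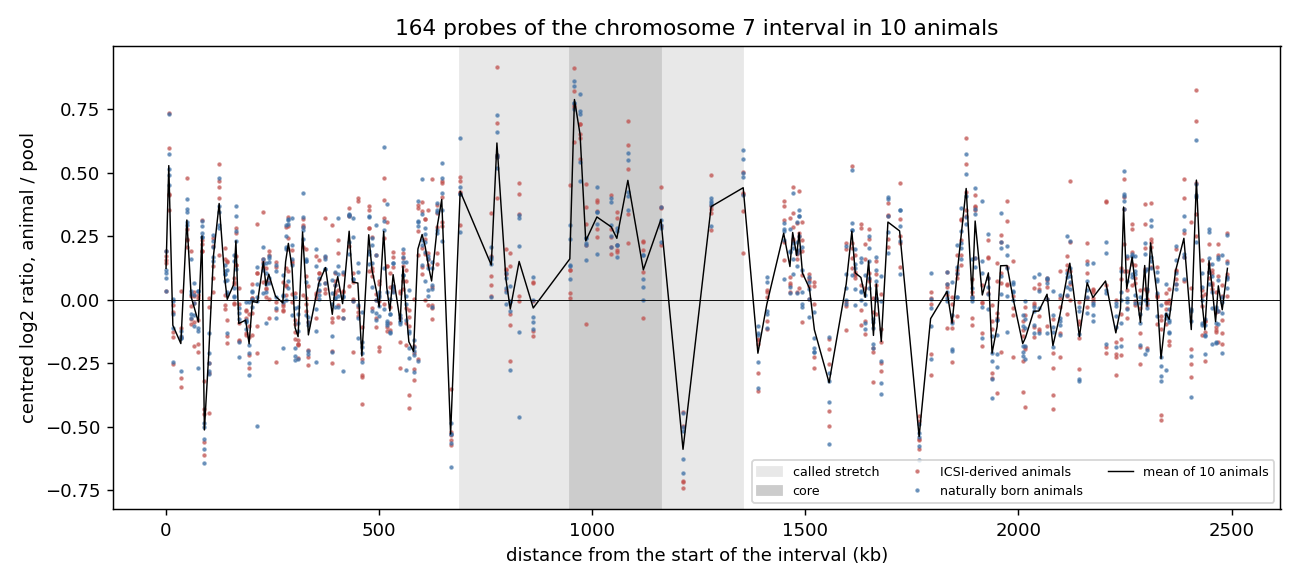
Centred log2 ratio of animal over pool at each of the 164 probes (vertical axis) against distance from the start of the interval in kb (horizontal axis), with ICSI-derived animals in red, naturally born animals in blue and the mean of 10 animals as a line. Light and dark shading mark the called stretch and its core. Most probes of the called stretch have means above 0 in both groups, some lie close to 0, and 1 lies near -0.59.

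**Figure D2:**
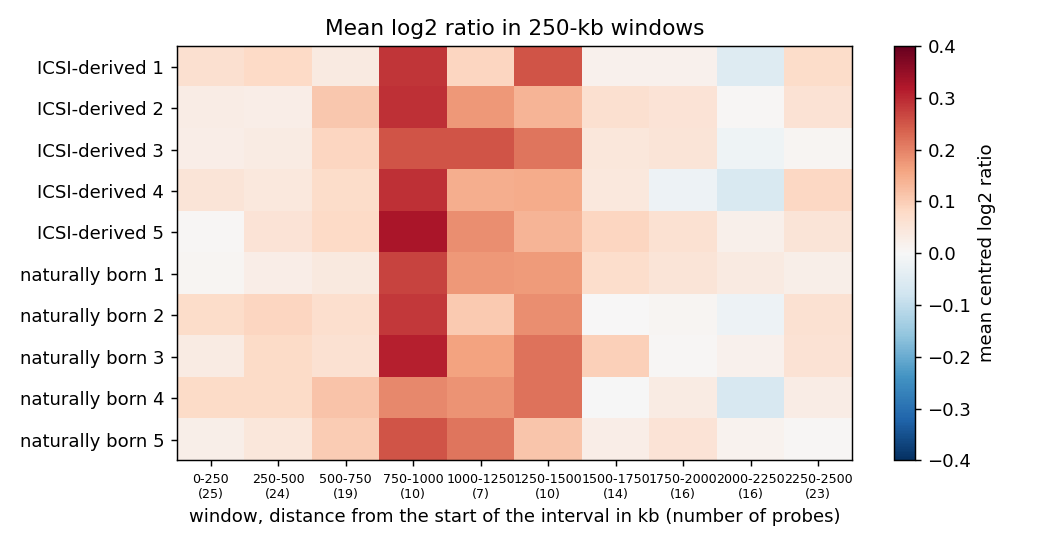
Mean centred log2 ratio (colour) in 10 consecutive windows of 250 kb (columns, with the number of probes) for each of the 10 animals (rows). Windows 4 to 6 are above 0 in every animal, with means over the animals of 0.28, 0.17 and 0.18.

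A segment with an elevated mean was called in 3 animals, all ICSI-derived. Segmentation, which divides each profile into stretches of constant mean, called a segment where that mean was at least 0.25 from 0 over 5 or more probes. ICSI-derived replicates 2 and 5 had the same segment, from 54490451 to 54961406 (471 kb, 17 probes), at 0.31 and 0.32. ICSI-derived replicate 3 had a segment from 54747626 to 55154389 (407 kb, 13 probes) at 0.34. Single probes within these segments were uneven. In ICSI-derived replicate 2 the probes at 54576634, 54628775 and 54747626 were at 0.69, 0.02 and 0.01. The segment of ICSI-derived replicate 3 held the probe at 55013164, at -0.71. No loss was called. The calls rest on the settings, since 0 animals had one with a penalty factor of 6 instead of 3 or a threshold of 0.4, and only ICSI-derived replicate 5 had one after normexp background correction. Of the 164 members, 20 lay in a called gain in at least 1 animal, against 0.354% of autosomal probes, and 0 lay in a called loss, against 0.237%. The interval was chosen by these same ratios, so these counts restate that choice and nothing is read from them.

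The other 7 animals, without a call, had core levels in the same range. The part shared by all 3 calls, the core, spans 214 kb (chromosome 7, 54747626 to 54961406) and holds 10 probes. The core lay at 0.33, 0.36, 0.42, 0.35 and 0.35 in ICSI-derived replicates 1 to 5. In naturally born replicates 1, 2, 4 and 5 it was 0.34, 0.32, 0.36 and 0.40, and on the array labelled replicate 3 it was 0.37. The 2 groups overlapped throughout, at 0.36 ± 0.04 and 0.36 ± 0.03 (SD, n = 5 each), and their means differed by 0.004. Within slides 1, 2 and 3 the ICSI-derived animals differed from the naturally born ones by 0.01, 0.02 and -0.05. The mean of all 10 animals, 0.36 ± 0.03 (SD, n = 10), corresponds to 1.28 times as much signal from the animal as from the pool.

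In the animals without a call, the segment holding the core was longer and its mean lower. The array labelled naturally born replicate 3 came nearest to the threshold, with a segment of 35 probes from 54391319 to 55285485 at 0.23. Naturally born replicates 2 and 4 had segments of 3946 and 4029 kb, at 0.15 and 0.14, that ended at 55309701 and 55293419. In ICSI-derived replicate 1 a segment of 38026 kb at 0.08 ended at 55321368, while in ICSI-derived replicate 4 and naturally born replicates 1 and 5 no boundary fell inside the interval. The noise of single chromosome 7 probes was between 0.149 and 0.154 in the 3 called animals. In the animals without a call it ran from 0.146, on the array labelled naturally born replicate 3, to 0.214 in ICSI-derived replicate 4. Naturally born replicate 1, also without a call, was at 0.153.

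**Figure D3:**
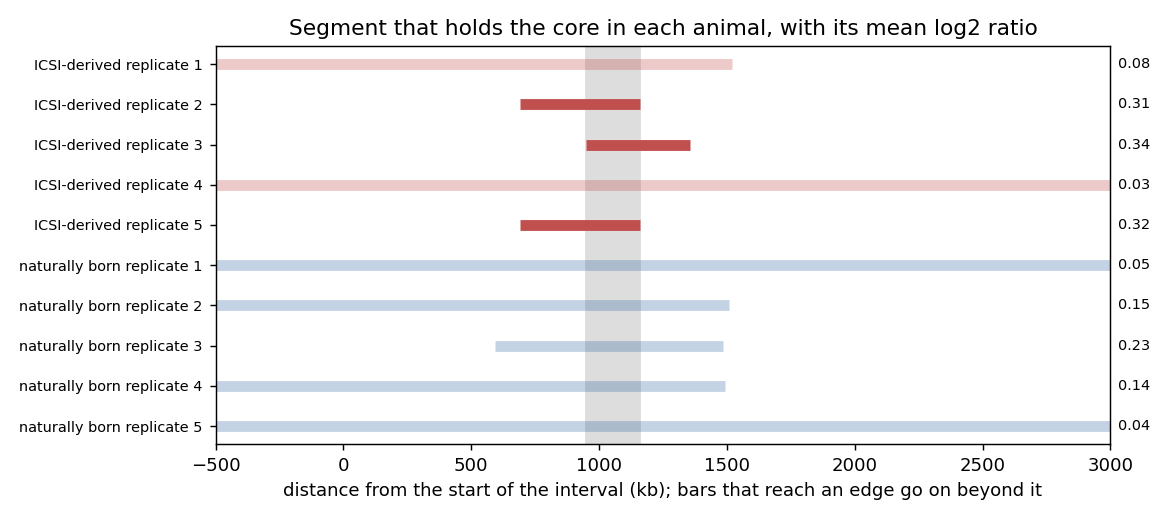
Position of the segment that holds the core in each animal, as distance from the start of the interval in kb (horizontal axis), with the segment's mean log2 ratio at the right. Solid bars are called segments and pale bars uncalled ones, and the grey band is the core, whose own level lies between 0.32 and 0.42 in all animals.

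**Figure D4:**
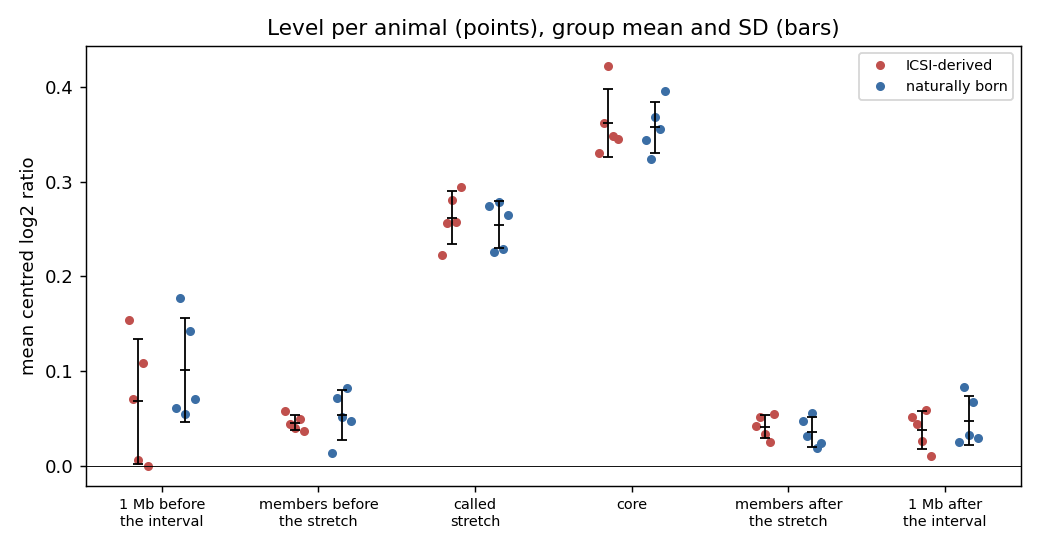
Mean centred log2 ratio (vertical axis) of each animal in the 1 Mb before the interval, the members before the called stretch, the called stretch, its core, the members after it and the 1 Mb that follows. Points are animals and bars the group mean and SD (n = 5); the core lies above every flanking value, and both groups overlap in every class.

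The level of the core was not even from probe to probe. The probe at 54758476 to 54758535 was the highest of all members, at 0.82, 0.62, 0.77, 0.91 and 0.76 in ICSI-derived replicates 1 to 5. It stood at 0.78, 0.86, 0.84 and 0.75 in naturally born replicates 1, 2, 4 and 5 and 0.78 on the array labelled replicate 3. No animal came near 0, and the groups overlapped. Its neighbour at 54771660 to 54771719 ranged from 0.47 to 0.81 with a median of 0.67. Without these 2 probes the core fell to a mean of 0.27 over 10 animals, with animals between 0.20 and 0.35. At the start of the core, the probe at 54747626 to 54747685 ranged from 0.01 to 0.45, and at its end the probe at 54961347 to 54961406 ranged from 0.21 to 0.45.

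Outside the core 2 more probes were among the 4 highest members. The probe at 54576634 to 54576693, inside the longer called segment, lay between 0.40 and 0.92 with a median of 0.57. Its 10 neighbours averaged 0.105, well below it. The probe at 53806963 to 53807022 lay between 0.35 and 0.74 with a median of 0.50, although the 10 probes around it averaged -0.001. One high probe among neighbours near 0 describes that probe and not its surroundings.

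The 4 lowest members were likewise isolated and lay below 0 in every animal. The probe at 55013164 to 55013223, next to the end of the core, was at -0.74, -0.72, -0.71, -0.44 and -0.49 in ICSI-derived replicates 1 to 5. In naturally born replicates 1, 2, 4 and 5 it was at -0.63, -0.52, -0.45 and -0.50, and on the array labelled replicate 3 at -0.68. Its 10 neighbours averaged 0.23, so this probe and its surroundings lay on opposite sides of 0. The probe at 54468007 to 54468066, just before the called stretch, ranged from -0.66 to -0.35 while its neighbours also averaged 0.23. The probes at 55566939 to 55566998 and 53890454 to 53890513 ranged from -0.63 to -0.46 and from -0.64 to -0.32, with neighbours at 0.05 and 0.09.

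Against the pool, 31 members passed as higher (limma, adjusted p under 0.05 and a mean of at least 0.25), beside 3.50% of all autosomal probes. As lower, 5 members passed, beside 1.71% of all autosomal probes. These levels chose the interval, so the shares are given as a description. All 10 animals lay above 0 at 30 of the 31 and below 0 at all 5. Over any size, 54 members were above 0 in all 10 animals, beside 10.6% of autosomal probes, and 16 were below, beside 9.12%. The flanks also held many such probes. In the 1 Mb before the interval 21 of 103 probes were above 0 in all 10 animals and 4 below. In the 1 Mb after it 19 of 100 were above and 13 below. The called stretch as a whole, 20 probes from 54490451 to 55154389, held 10 of the 31 and 1 of the 5, with 11 and 2 before it and 10 and 2 after it. The highest mean was that of the probe at 54758476, at 0.79 ± 0.03 (SE, above 0 in 10 of 10 animals). This probe was picked as the highest member, so its level is a description too. The SE covers the animals only and leaves out the pool's own spread and dye effects of the probe.

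Runs of 10 consecutive probes with a mean of at least 0.25 in each of the 10 animals numbered 22 of 161289 on the autosomes (0.0136%), in 3 separate places, and 4 of the 155 runs within the interval were among them. The interval and its core were chosen by these same ratios, so these counts restate that choice and nothing is read from them. Probes were sparse in the core. The median distance between neighbouring starts was 25.9 kb in the core and 11.7 kb over the interval, against 10.8 kb over the autosomes, and the widest gap in the interval was 85.7 kb. Windows 4 to 6 together held 27 of the 164 probes. Fewer probes leave a level less precisely measured, and short probes in repeated gene families can bind more than 1 copy, which was not tested here.

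No member passed the test between ICSI-derived and naturally born animals. Of 164 probes, 0 passed limma's test with group and labelled sex in the model, against 0.0198% of 161460 autosomal probes (32 probes). In the higher direction 0 members passed, against 0.0155%, and in the lower direction 0, against 0.00434%. At an unadjusted p under 0.05 limma picked 1 member, against 3.27% of autosomal probes. That probe, at 55880825 to 55880884, was at -0.38, -0.27, -0.21, -0.43 and -0.08 in ICSI-derived replicates 1 to 5. In naturally born replicates 1, 2, 4 and 5 it was at -0.06, -0.13, -0.18 and -0.10, and on the array labelled replicate 3 at 0.04. The groups overlapped there, and the difference was -0.18 ± 0.07 (SE, limma adjusted p = 1). Differences of the members ranged from -0.18 to 0.19, with a median of 0.0005 and a median SE of 0.07. The array labelled naturally born replicate 3 entered this model as male, although its sex chromosomes were at the level of neither sex. With no sex term 0 members passed, against 0.0204% of autosomal probes, and without that array 0, against 0.0161%.

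By the median SD, animals differed from one another about as much at the members as at autosomal probes in general. The SD over the 10 animals had a median of 0.099 for the members and 0.104 for all autosomal probes. It reached 0.3 at 0 of the 164, against 1.57% of autosomal probes, and 0.2 at 5, against 6.30%. The shape of the profile was shared: the correlation of 2 animals over the 164 probes ranged from 0.61 to 0.87 over the 45 pairs, with a median of 0.77, against a median of 0.47 over all autosomal probes. All pairs share the probes, the pool and the array design, and the interval was chosen by these same ratios, so this is a description.

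The most variable member, at 54628775 to 54628833, sat inside the called stretch. In ICSI-derived replicates 1 to 5 it was at 0.42, 0.02, -0.004, 0.34 and 0.46. In naturally born replicates 1, 2, 4 and 5 it was at 0.32, 0.21, -0.46 and -0.13, and on the array labelled replicate 3 at 0.33. Both groups held high and low animals, and naturally born replicate 4 was lowest. The SD was 0.29, just under the 0.3 threshold, while the 10 neighbours averaged 0.30. With ICSI-derived replicate 2, 3 or 4 or naturally born replicate 1, 2 or 3 left out, 1 member reached 0.3.

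At the probe at 54391319 to 54391378, 2 animals stood apart. ICSI-derived replicate 1 and naturally born replicate 1 were at -0.23 and -0.24. The other ICSI-derived animals were between 0.17 and 0.37, and the other naturally born arrays between 0.29 and 0.39. The pair comes from both groups, and the 10 neighbours averaged 0.06. Another variable probe, at 54015018 to 54015077, ranged from -0.50 in naturally born replicate 1 to 0.30 in ICSI-derived replicate 3.

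Several of the remaining variable members were highest on the noisy arrays. The probe at 56004236 to 56004295 was at 0.39 in ICSI-derived replicates 1 and 4 and 0.23 in naturally born replicate 2, with a median of 0.05 and a lowest value of -0.21. At 56217374 to 56217433 the same 3 animals were at 0.70, 0.83 and 0.63, with a median of 0.43. At 54250469 to 54250528 they were at 0.39, 0.40 and 0.15, with a median of -0.02. Over all autosomal probes, deviations from the group means correlated at 0.394 and 0.336 between naturally born replicate 2 and ICSI-derived replicates 1 and 4. The part of array noise or of such a shared deviation in these values was not tested. At 54311012 to 54311071 and 56205360 to 56205419 the range was from -0.04 to 0.60 and from -0.38 to 0.31.

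**Figure D5:**
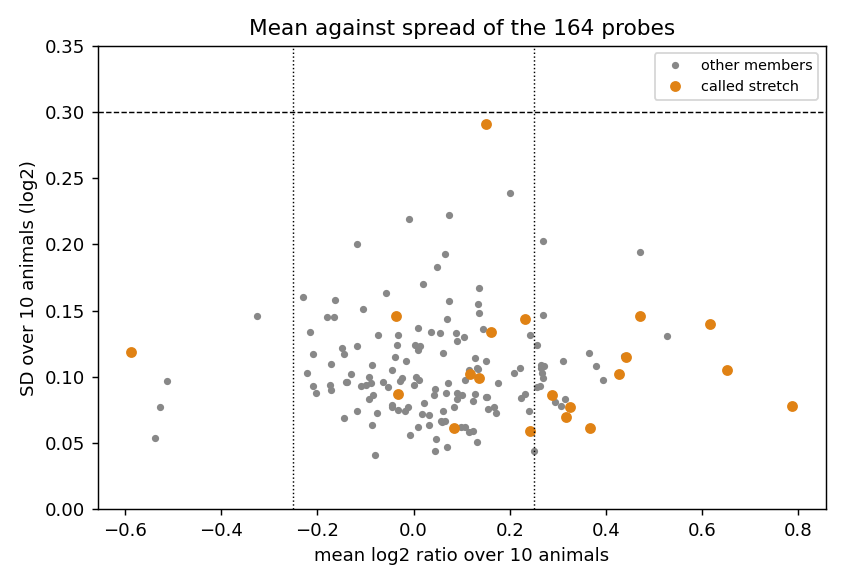
SD over 10 animals (vertical axis) against the mean log2 ratio over 10 animals (horizontal axis) for each of the 164 probes, with probes of the called stretch in orange. The dashed line marks an SD of 0.3, which no probe reaches, and the dotted lines means of -0.25 and 0.25.

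Stretches of members varied little between animals, as most autosomal stretches did. An SD over animals of at least 0.2 was found in 0.295% of autosomal runs of 10 probes, so its absence from the 155 member runs is near that share. Among runs of 10 consecutive members the largest SD over animals was 0.07, at 55787466 to 55920541, with animals from -0.17 to 0.06. Of 476 autosomal runs elsewhere with an SD of at least 0.2, those most like it over the 10 animals lay on chromosome 5, at 13734737 to 14002797 (Pearson r = 0.73) and 22599635 to 22672244 (r = 0.67). At an SD of 0.07 the member run hardly varies, and r is given as a description.

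The edges of the interval were set by position. The first member, at 53800530, averaged 0.12 over 10 animals and the last probe before it, at 53789615, averaged 0.03. The last member, at 56290158, averaged 0.12 and the next probe, at 56303682, averaged -0.09.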

How the data were processed

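The deposited scanner files give spot intensity per channel, with animals in Cy5 and the pool in Cy3 per the labels. Per the file headers, Feature Extraction 10.7.3.1 made the processed intensity by subtracting background and applying linear dye normalisation. The deposited table of values gives log10 ratios, within 0.001 of the scanner files' own log10 ratio at every spot, and no further centring was found. Partek 6.5 also appears in the submitters' processing notes. Coordinates are mm9, named in 6 headers, and the other 4 files carry the same positions. Groups came from the description labels, since the growth text is the same for both. Arrays sat on 3 slides, each holding both groups.

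Non-control spots were averaged by probe, and log2(Cy5/Cy3) was centred on each array's autosomal median without loess, since copy number can shift many probes. All autosomal probes were fitted with limma 3.58.1 in R 4.3.3 (two-sided, Benjamini-Hochberg at 0.05). The models were group and labelled sex for the groups, and the mean of both groups against 0 for the pool. The pool's own spread and dye effects of a probe stay in the latter. Replicates are separate animals, and their number limits the precision. Segmentation was optimal partitioning (penalty factor 3, at least 5 probes, single probes beyond 4 robust SD of 10 neighbours drawn in) with Python 3.11.15, numpy 2.4.6 and numba 0.67.0. Both steps were tested on simulated data, where small differences were recovered only in part. Named probes are those called between groups, the 8 of largest SD, the 4 highest and 4 lowest means, and the ends of segments and interval. The probe at 55880825, the windows and the called stretch were singled out after their values were seen, as was the core without its 2 highest probes. The members and lists were chosen with earlier results of these data known.

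Same-numbered animals of the groups did not deviate together (correlations of -0.28 to 0.15), so the number pairs nothing.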

Additional observations from a re-analysis of the deposited data

Results flagged for a closer look

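Of 44 sets of 5 values (the interval mean, the core and the named probes in each group), 4 held 1 animal well apart from the other 4. The cut-off is one that about 1 set in 20 would pass by chance. That rate does not hold here, since the core and many named probes were picked on these same values. Naturally born replicate 1 was far below its group at the probe at 54015018, at -0.496 against -0.004 to 0.129 in the others, and at the probe at 54391319, at -0.241 against 0.289 to 0.389. ICSI-derived replicate 1 was above its group at the probe at 54468007, at -0.351 against -0.572 to -0.521. ICSI-derived replicate 3 was above its group at the first probe of the core, 54747626, at 0.451 against 0.007 to 0.119. Neither the interval mean nor the core level had such a value.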

How the results depend on the processing

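The core stayed between 0.34 and 0.36 under other centring, normexp, loess, the value table and both spot filters, and between 0.352 and 0.363 when each animal was left out. Its group difference ran from -0.011 to 0.014 with each animal left out and was -0.05 within slide 3, which holds 1 animal per group. The difference of the interval mean was -0.011 within slide 2 and 0.014 within slide 3. The call of a segment depended on the settings: 3 animals had one, 0 with a penalty factor of 6 or a threshold of 0.4, and 1 with normexp. Each animal was segmented alone, so leaving 1 out cannot change the calls of the others. At an absolute mean of 0.5, 4 members were higher than the pool and 4 lower, against 0.369% and 0.162% of autosomal probes, so the excess of higher over lower (31 and 5 at 0.25) was absent there. With each animal left out the count was 28 to 33 higher and 5 to 6 lower. The count of members with an SD of at least 0.3 was 0 to 1 with each animal left out and 1 without the 3 noisiest arrays, an alternative added after seeing the data, and 5 at a threshold of 0.2. No member was called between the groups in any alternative fit, the replicate block included, where 0 passed (0.0155% of autosomal probes) and 2 had an unadjusted p under 0.05 (3.24%). With each animal left out, 0 to 5 members had an unadjusted p under 0.05, against 2.6% to 3.91% of autosomal probes, and 7 without the 3 noisiest arrays, against 5.36%. The core rests on 10 probes. No correction for GC content could be made without probe sequences.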
